A study of Mus musculus with 2 samples.

Results

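Glutamate transporters load the transmitter into synaptic vesicles and clear it from the extracellular space, and this account describes where anti-FLAG CUT&Tag peaks lay at 6 of their genes: Slc17a7, Slc17a6 and Slc17a8, which encode the vesicular transporters VGLUT1, VGLUT2 and VGLUT3, and Slc1a1, Slc1a2 and Slc1a3, which encode the plasma membrane transporters EAAC1, GLT-1 and GLAST. Members were the peaks whose region of maximum signal the authors had assigned to one of these symbols, 45 of the 99797 peaks in the list. The list comes from 1 CUT&Tag library of hippocampal tissue from C57BL/6J mice of the genotype CamK-PARIS, made with an antibody against the FLAG tag to capture PARIS, a zinc-finger repressor, and called by the authors against 1 IgG library of the same genotype and tissue. In CUT&Tag the bound antibody brings the Tn5 transposase to chromatin, and the fragments it cuts there are sequenced. The labels do not give the age of the mice, how many were used, which cells carry the tagged protein or whether animals were pooled, and both samples carry this genotype, so that no library from mice without it was analysed here. With 1 library per antibody no value below has a replicate error and no difference was tested.

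As background, Slc17a7 is the vesicular transporter of most hippocampal and cortical glutamatergic neurons, Slc17a6 is used mainly by subcortical ones, and Slc17a8 occurs in scattered neurons that also release other transmitters. Slc1a2 and Slc1a3 are best known from astrocytes, where they take up most synaptically released glutamate, although some Slc1a2 is also found in axon terminals, and Slc1a1 is found mainly on the dendrites and cell bodies of neurons. Slc17a7, Slc17a6 and Slc1a1 are called neuronal below and Slc1a2 and Slc1a3 astrocytic, and Slc17a8 is in neither group. Hippocampal tissue holds both kinds of cell, and in such bulk material fewer cells with a signal and less signal per cell cannot be told apart.

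Slc17a7 was the only 1 of the 6 genes with a peak within 1 kb of its gene start, the 5′ end of the gene in GENCODE M21. Among all 21938 protein-coding genes 39.3% had such a peak. To show what lies at these starts, the 250 bases before the gene start are printed for Slc17a7, which had a peak there, and for Slc1a1, Slc1a2 and Slc1a3, which had none. They were read from the GRCm38.p6 assembly of the mm10 build, 5′ to 3′ in the direction of transcription, and capitals mark CpG dinucleotides.
Slc17a7 (chr7:45163699-45163948, plus strand): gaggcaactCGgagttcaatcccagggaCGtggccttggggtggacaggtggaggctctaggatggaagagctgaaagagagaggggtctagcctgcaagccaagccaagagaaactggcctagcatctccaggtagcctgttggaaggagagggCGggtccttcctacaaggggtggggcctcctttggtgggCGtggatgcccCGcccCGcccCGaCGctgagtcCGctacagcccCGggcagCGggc
Slc1a1 (chr19:28834799-28835048, plus strand): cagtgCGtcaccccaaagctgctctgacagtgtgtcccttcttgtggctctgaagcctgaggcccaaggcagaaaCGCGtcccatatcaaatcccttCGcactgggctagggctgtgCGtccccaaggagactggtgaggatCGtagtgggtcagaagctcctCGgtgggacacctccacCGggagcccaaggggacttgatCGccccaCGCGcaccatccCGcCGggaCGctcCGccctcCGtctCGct
Slc1a2 (chr2:102658409-102658658, plus strand): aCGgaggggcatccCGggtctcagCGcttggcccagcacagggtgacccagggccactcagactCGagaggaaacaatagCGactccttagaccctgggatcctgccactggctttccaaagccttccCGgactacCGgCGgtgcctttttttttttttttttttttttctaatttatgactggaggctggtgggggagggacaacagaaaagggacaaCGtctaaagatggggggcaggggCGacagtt
Slc1a3 (chr15:8710765-8711014, minus strand): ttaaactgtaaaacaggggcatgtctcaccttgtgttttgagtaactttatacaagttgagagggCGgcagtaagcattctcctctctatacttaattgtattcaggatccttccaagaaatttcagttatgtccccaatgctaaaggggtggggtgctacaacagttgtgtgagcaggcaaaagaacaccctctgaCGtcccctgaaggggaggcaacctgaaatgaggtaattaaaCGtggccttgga

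The stretch of Slc17a7 held 11 CpGs at a GC content of 64.4%, that of Slc1a1 17 at 63.6%, that of Slc1a2 10 at 54.8% and that of Slc1a3 3 at 44.8%. Over 500 bp either side of the start, the ratio of observed to expected CpGs was 0.52 for Slc17a7, 0.78 for Slc1a1, 0.81 for Slc1a2 and 0.55 for Slc1a3, with 0.61 for Slc17a6 and 0.27 for Slc17a8, against a median of 0.55 over all protein-coding genes. A peak within 1 kb was found at 59.0% of the 10076 gene starts with a ratio of at least 0.6 and at 22.6% of the 11862 others. By this ratio the starts of Slc1a1 and Slc1a2, which had no peak, were richer in CpG than that of Slc17a7. Slc1a1, Slc1a2 and Slc17a6, the last close to the limit of 0.6, belong to the class of starts that more often had a peak. Slc17a7, Slc1a3 and Slc17a8 belong to the class that less often did. Whether CpG content bears on the start peaks of these 6 genes was not tested.

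Slc17a7 (ENSMUSG00000070570, chromosome 7, 45163949 to 45176142, plus strand) had 6 assigned peaks. Their maximum signals, the highest coverage within each peak in the authors' units, were 413, 228, 152, 191, 131 and 132 in order along the gene, against a median of 101 over all peaks. All 6 lay above that median, and the highest stood just upstream of the start. The peak of 413 spanned 45162117 to 45163070, ended 879 bp before the gene start, and ranked 671 of 99797 peaks by maximum signal. The next, of 228, spanned 45163928 to 45165995, was 2068 bp wide and covered the start itself. It was the widest of the 45 peaks, whose median width was 403 bp.

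By shape, too, these peaks differed from most of the list. Dividing the total signal of a peak (its coverage summed over bases) by its maximum times its width gives 1 for a flat block, and peaks with at least 99% of that are here called constant-height peaks. Of all annotated peaks 36.7% were not of constant height, and 5 of the 6 Slc17a7 peaks were not. A seventh peak, of constant height with a maximum of 80, lay inside the gene at 45174161 to 45174528 but was assigned by the authors to Mir7055, a microRNA gene within Slc17a7.

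Together 6 peaks overlapped the body of Slc17a7 and covered 6182 of its 12194 bp, or 50.7%. The median over all protein-coding genes was 1.19%, and over the 7795 genes between 0.5 and 2 times its length it was 1.43%. Among the 14164 protein-coding genes of at least 10 kb, a minimum chosen after the values were seen, Slc17a7 ranked 3 by this share. The peak density within the gene was 49.2 per 100 kb (exact Poisson 95% interval 18.1 to 107, for counting error over peaks only). This interval counts neighbouring peaks as independent. Each of the 6 peaks assigned to Slc17a7 lay within 1 kb of the next, so that merging at this distance joins them all. Peaks were also present around the gene: of 13 peaks in the gene or within 15 kb of it, 7 lay outside the gene body. These included the peak of 413, one of 265 in Pih1d1, upstream, and one of 210 in Gfy, downstream.

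**Figure D1:**
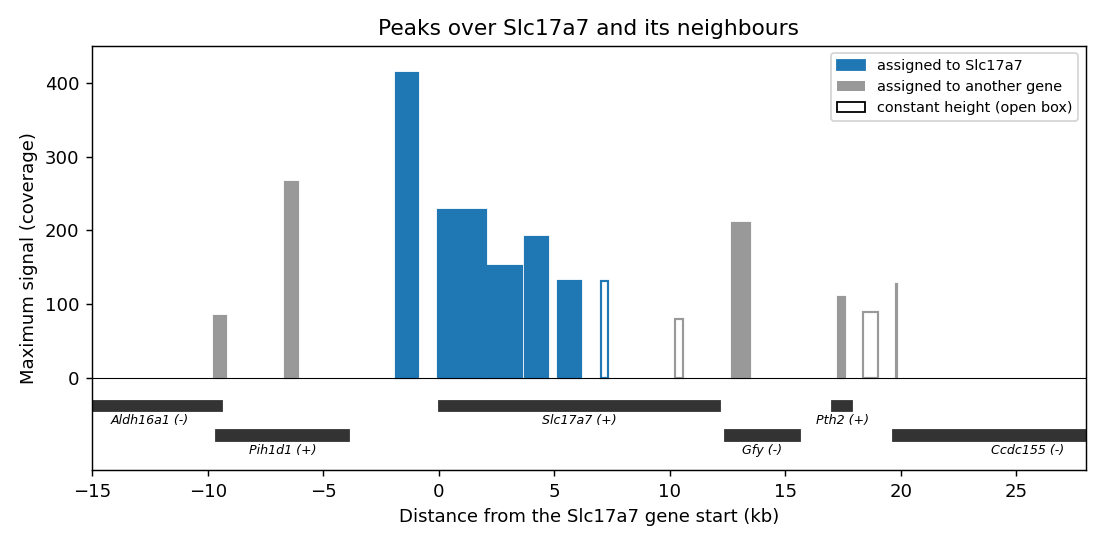
Peaks in and within 15 kb of Slc17a7. The x axis gives the distance from the gene start in kb and the y axis the maximum signal of each peak (coverage); each box spans the width of a peak, open boxes are constant-height peaks, and dark bars below are protein-coding genes with their strand. The 5 filled blue boxes, with maxima from 131 to 413, run from just before the start into the first part of the gene.

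Slc17a6 (ENSMUSG00000030500, chromosome 7, 51622006 to 51671119, plus strand), the second vesicular transporter, had 8 assigned peaks with maxima from 12 to 155 and a median of 112.5. Of these 7 were of constant height, and none was in the highest 10% of the list. The nearest to the gene start began 2511 bp after it, at 51624517 to 51624595, with a maximum of 107, and the next, at 51625110 to 51625512 with a maximum of 69, overlapped the start of a shorter non-coding transcript. Only 3 peaks overlapped the gene body, and they covered 1.24% of it. The highest, of 155, lay 47.3 kb upstream in exon 15 of 22 of Ano5, a neighbouring gene, and 4 others were distal intergenic, up to 118.8 kb downstream of the start.

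Slc17a8 (ENSMUSG00000019935, chromosome 10, 89574020 to 89621253, minus strand), the third vesicular transporter, had 1 assigned peak. It was a constant-height peak of 164 bp with a maximum of 89, at 89635171 to 89635334, 13918 bp upstream of the start. No peak overlapped the gene body. All 6 genes thus had at least 1 assigned peak, as did 71.0% of protein-coding genes.

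Slc1a1 (ENSMUSG00000024935, chromosome 19, 28835049 to 28913960, plus strand), the neuronal plasma membrane transporter, had 9 assigned peaks with maxima from 13 to 133 and a median of 87. The nearest to the gene start lay 13418 bp upstream. In the gene the peaks gathered near the 3′ end: 6 of the 9 had their region of maximum signal between 61.3 and 68.5 kb after the start, where 4430402I18Rik, a gene on the opposite strand, overlaps Slc1a1. The signal carries no strand, so these 6 peaks cannot be allotted to one of both genes. The highest of them, 133, spanned 28896668 to 28897277 and was not of constant height. Another, at 28897679 to 28898166, reached only 13, the second lowest of the 45.

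**Figure D2:**
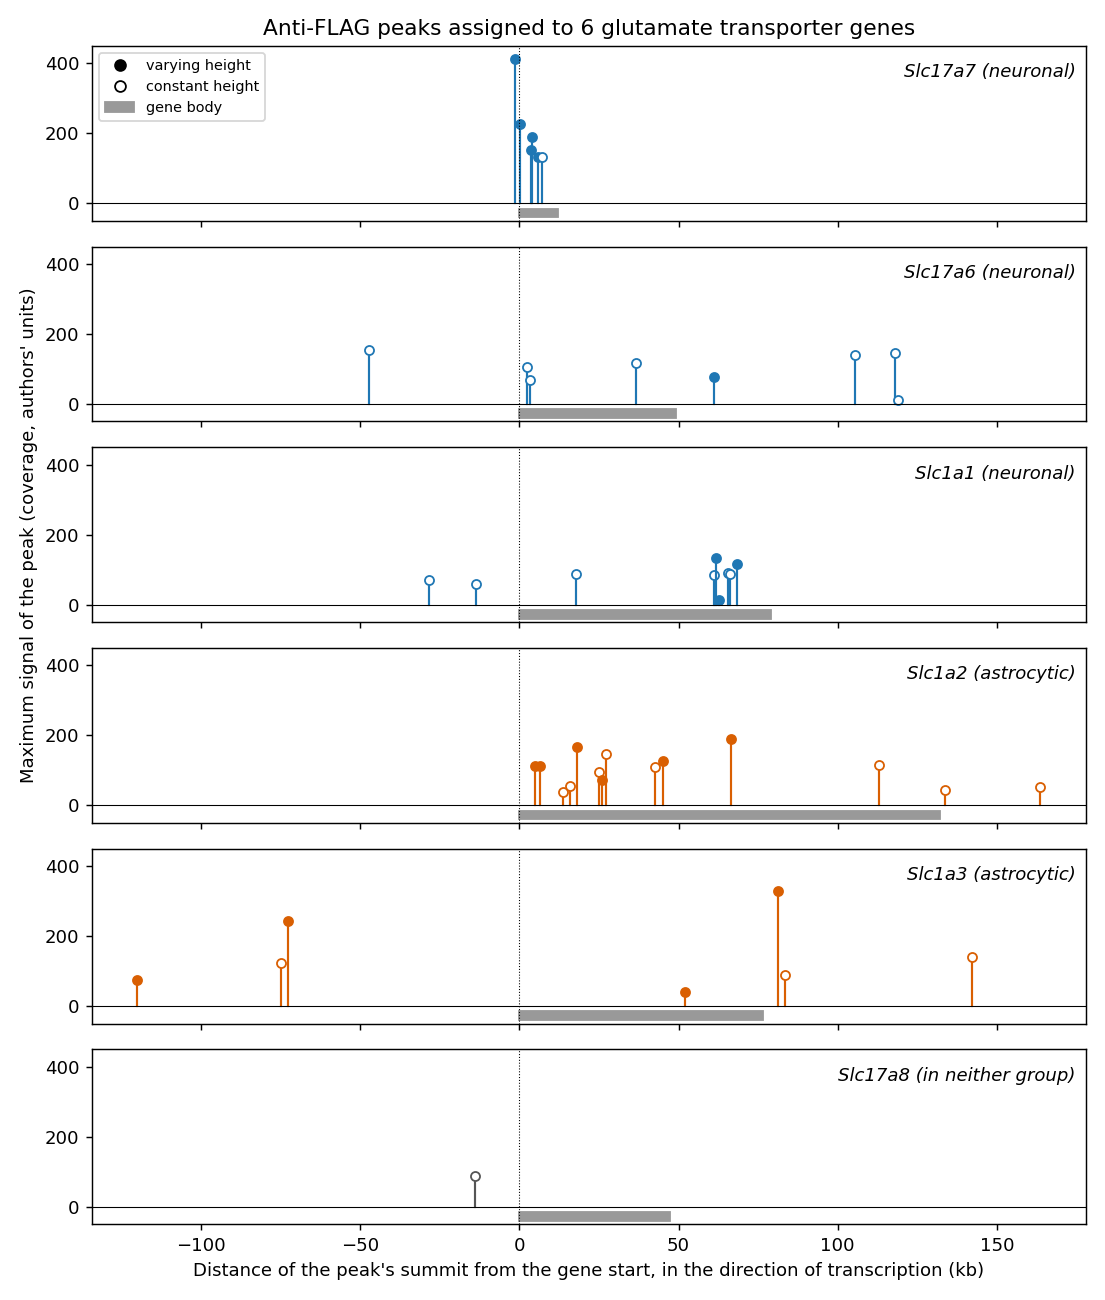
The 45 peaks at the 6 genes. The x axis gives the distance of each peak's region of maximum signal from the gene start in kb, in the direction of transcription, and the y axis its maximum signal (coverage); filled points are peaks that were not of constant height, open points constant-height peaks, and grey bars the gene bodies. Peaks of Slc17a7 run from 1.5 kb before to 7.19 kb after the start. Those of Slc1a2 stand mostly in the first part of the gene, and those of Slc1a3 mostly outside the gene.

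Slc1a2 (ENSMUSG00000005089, chromosome 2, 102658659 to 102790784, plus strand), which encodes the main astrocytic glutamate transporter, had the most assigned peaks of the 6 genes, 14. Their maxima ranged from 39 to 190 with a median of 111.5, and 6 were not of constant height. The peak nearest to the start began 4893 bp after it, at 102663552 to 102664241, with a maximum of 113. Within 70 kb after the start lay 11 of the 14, 7 of them in intron 1 by the authors' annotation and the other 4 classed as promoter because shorter transcripts start nearby. The highest, of 190, spanned 102725080 to 102725301 in intron 1, 66.5 kb after the start. The last of the 14, with a maximum of 53, lay 163.6 kb from the start inside Cd44, and a peak of 116 inside Slc1a2 had been assigned to the antisense gene Gm13872.

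Slc1a2 is also the longest of the 6 genes, at 132.1 kb. Per length, 13 peaks overlapped its body, a density of 9.84 per 100 kb (5.24 to 16.8), against a median of 4.54 over the 3158 protein-coding genes between 0.5 and 2 times its length. Peaks covered 3.71% of the body, against a median of 1.75% in that class. Slc1a2 thus stood above the median of genes of its length, at the percentile 84.9 by density and 80.4 by share covered.

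Slc1a3 (ENSMUSG00000005360, chromosome 15, 8634124 to 8710764, minus strand), which encodes the other astrocytic transporter, had 7 assigned peaks with maxima of 141, 88, 328, 39, 243, 124 and 75 in order along the chromosome. Only 1 of them, the lowest, overlapped the gene, in intron 3 of 9 and 51889 bp from the start. The 2 highest were both outside. The peak of 328 spanned 8629346 to 8629673, 4451 bp beyond the 3′ end, and ranked 1656 of all peaks by maximum signal. The peak of 243 spanned 8782996 to 8783747, 72.5 kb upstream, and ranked 4756. Neither was of constant height. The density within the gene, 1.30 per 100 kb (0.0330 to 7.27), was below the median of 4.70 over the 4887 genes of similar length.

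For a view of the sequence at the highest peaks, 200 bp centred on the region of maximum signal are shown for Slc17a7, Slc1a2 and Slc1a3. They are printed in the direction of transcription of the gene and with CpGs in capitals. The windows of Slc1a2 and Slc1a3 reach beyond 1 edge of the peak.
Slc17a7, upstream of the start (chr7:45162351-45162550, plus strand): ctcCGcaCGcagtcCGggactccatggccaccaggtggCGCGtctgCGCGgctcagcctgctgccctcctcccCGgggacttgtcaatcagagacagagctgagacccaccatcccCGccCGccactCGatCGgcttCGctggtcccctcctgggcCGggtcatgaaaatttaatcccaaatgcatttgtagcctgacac
Slc1a2, intron 1 (chr2:102725067-102725266, plus strand): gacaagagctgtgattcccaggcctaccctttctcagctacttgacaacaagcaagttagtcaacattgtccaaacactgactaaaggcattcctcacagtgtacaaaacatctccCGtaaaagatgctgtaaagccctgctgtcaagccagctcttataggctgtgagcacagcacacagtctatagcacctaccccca
Slc1a3, beyond the 3′ end (chr15:8629288-8629487, minus strand): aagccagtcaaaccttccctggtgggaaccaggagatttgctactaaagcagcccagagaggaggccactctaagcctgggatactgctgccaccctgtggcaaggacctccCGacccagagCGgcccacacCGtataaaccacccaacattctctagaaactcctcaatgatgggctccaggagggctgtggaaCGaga

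The Slc17a7 window held 14 CpGs at 63.5% GC, the Slc1a2 window 1 at 47.5% and the Slc1a3 window 4 at 56.5%. Over the 6 peaks of Slc17a7 the GC content of these windows was 56.8% ± 5.97 (SD over peaks), over the 39 peaks of the other members 46.1% ± 5.76, and over all annotated peaks 49.03% ± 8.92. At least 50% of the window was repeat-masked in 2 of the 45 member windows, against 15.7% of all annotated peaks.

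The insulin response sequence, the element that earlier work links to PARIS binding, was searched as TATTTTT and TATTTTG on both strands. These variants share their first bases, and both cannot start at the same position. In the 250 bases before the start 0 of the 6 genes held a match, as against 9.34% of all protein-coding genes. Of the 200 bp summit windows of the 45 peaks, 5 held a match, or 11.1% (exact binomial 95% interval 3.71 to 24.1), against 9.96% over all annotated peaks. This share is close to that of the whole list. One match is shown for each of 4 of these windows, with the motif in capitals. The matches were not at the highest peak of any member: the peak of Slc17a7 had a maximum of 131, that of Slc17a6 107, that of Slc1a2 113 and that of Slc1a1 84. A window can be wider than its peak, and the Slc17a6 match lay outside its peak, which starts at 51624517.
Slc17a7 (chr7:45169790-45169819, plus strand): tagtttgatgtgTATTTTGacccacagaaa
Slc17a6 (chr7:51624491-51624520, plus strand): atgggcccgcgaTATTTTTcagtgtgctgt
Slc1a2, motif on the opposite strand (chr2:102663619-102663648, plus strand): gggggagtgtttAAAAATAtctcatggctc
Slc1a1 (chr19:28896374-28896403, plus strand): tttatttatttgTATTTTGgagagccatgt

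The fifth peak, also at Slc1a1, had a maximum of 13 and held both TATTTTT and TATTTTG. Windows with a match were 4 of the 23 of neuronal genes (17.4%, 4.95 to 38.8) and 1 of the 21 of astrocytic genes (4.76%, 0.120 to 23.8). Both intervals hold the 9.96% of all annotated peaks, and the difference was not tested. The Slc1a1 matches lay where 4430402I18Rik overlaps the gene.

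By the authors' distances, taken to the start of any annotated transcript, the share of member peaks no farther than 1 kb from a transcription start site (TSS) was 6 of 45 (13.3%, 5.05 to 26.8), against 15.3% of all annotated peaks. In the authors' classes 15 were promoter (within 3 kb; 33.3%, against 24.6% of all annotated peaks), 14 intronic (31.1% against 38.0%), 14 distal intergenic (31.1% against 31.9%) and 2 exonic (4.44% against 3.52%). The promoter class depended on short internal transcripts: 12 of the 15 had been assigned to a transcript that is not annotated as protein-coding, and 3 had their region of maximum signal within 3 kb of the gene start. Of these 3, 2 belonged to Slc17a7 and 1 to Slc17a6. Of all 45, 21 lay over 50 kb and 8 over 100 kb from the gene start.

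The contrast named for these genes sets neuronal against astrocytic transporters. The 3 neuronal genes had 23 assigned peaks, or 7.67 per gene, and the 2 astrocytic genes 21, or 10.5 per gene, a ratio of 0.730 (exact 95% interval 0.386 to 1.39, which counts neighbouring peaks as independent). With peaks within 1 kb of each other merged, the counts were 13 and 19 and the ratio 0.456. Per length of gene body the order was the opposite, with 16 peaks in 140.2 kb of neuronal genes, 11.4 per 100 kb (6.52 to 18.5), and 14 in 208.8 kb of astrocytic genes, 6.71 per 100 kb (3.67 to 11.3). Without Slc17a7 the density of the other neuronal genes was 7.81 per 100 kb (3.75 to 14.4) and their share of gene body under peaks 2.53%, beside 2.64% for the astrocytic genes. By density of all peaks the order was thus the same with and without Slc17a7, while the gap was smaller without it. By share covered the astrocytic genes were slightly higher once Slc17a7 was left out. Of the body peaks, 3 of 10 in the other neuronal genes and 7 of 14 in the astrocytic genes were not of constant height. Whether the groups differ was not tested, and the order of their counts depended on whether genes or lengths were the denominator.

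In peak height, too, the groups overlapped. The median maximum was 116 over the neuronal peaks and 113 over the astrocytic ones, and 88 over the neuronal peaks without Slc17a7. Of the 45 peaks 6 were in the highest 10% of the list by maximum signal, which begins at 189 and holds 9.94% of annotated peaks: 3 of Slc17a7, 2 of Slc1a3 and 1 of Slc1a2, the last at 190. None of Slc17a6, Slc1a1 or Slc17a8 was among them. Peaks not of constant height numbered 9 of 23 in the neuronal and 10 of 21 in the astrocytic group.

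**Figure D3:**
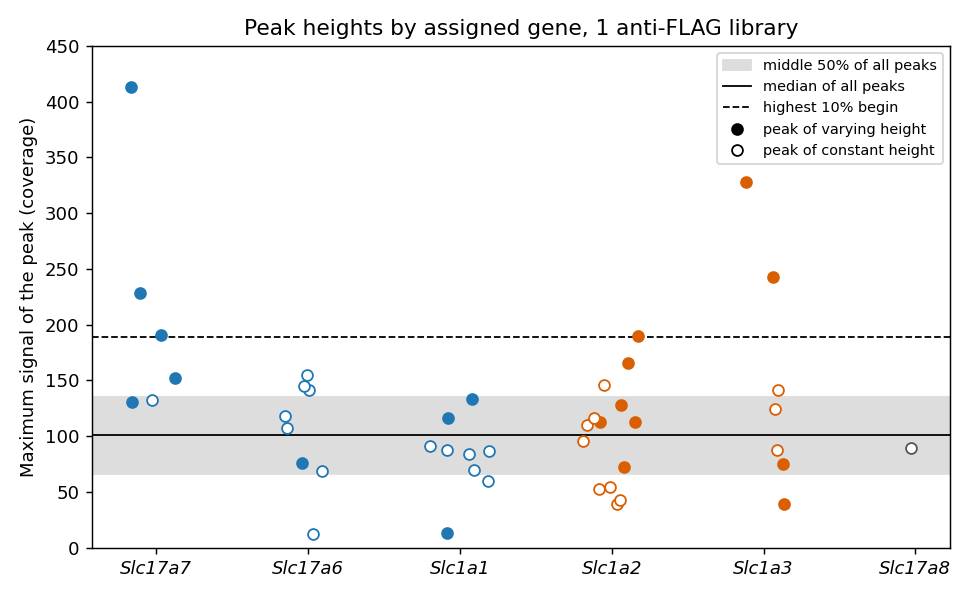
Maximum signal (coverage, y axis) of each of the 45 peaks by assigned gene (x axis). Filled points are peaks not of constant height and open points constant-height peaks; the grey band holds the middle 50% of all peaks in the list (66 to 135), the solid line is their median (101) and the dashed line marks where the highest 10% begin (189). All points of Slc17a7 lie above the solid line.

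Related genes of glutamate and glutamine handling gave a frame for these values. In a list of 24 (other Slc1 and Slc17 family members, glutamine transporters, mitochondrial glutamate carriers, the vesicular GABA transporter and enzymes of the cycle), 14 had a peak within 1 kb of the gene start (58.3%, against 39.3% of all protein-coding genes). A peak of varying height was found at 11 of the 24 starts (45.8%, against 27.8%). Of the 6 members only Slc17a7 had such a peak. The highest start peaks of the list were at Slc38a1 (403) and Slc38a2 (280), which encode transporters of glutamine, and at Got1 (308), the cytosolic aspartate aminotransferase. Most peaks were assigned to Got2, the mitochondrial form of that enzyme, with 33, of which only 2 overlapped the gene, followed by Slc38a1 with 11 and Slc38a2 with 10. Glul, the astrocytic glutamine synthetase, had 8 assigned peaks but none within 1 kb of its start, and its values were singled out after they had been seen. The share of gene body under peaks ranged from 0 to 18.4% over the list, below the 50.7% of Slc17a7. By peak density, however, Slc32a1, the vesicular GABA transporter, stood above Slc17a7, at 80.3 against 49.2 per 100 kb. It is a short gene of 4.98 kb with 4 peaks over its body.

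**Figure D4:**
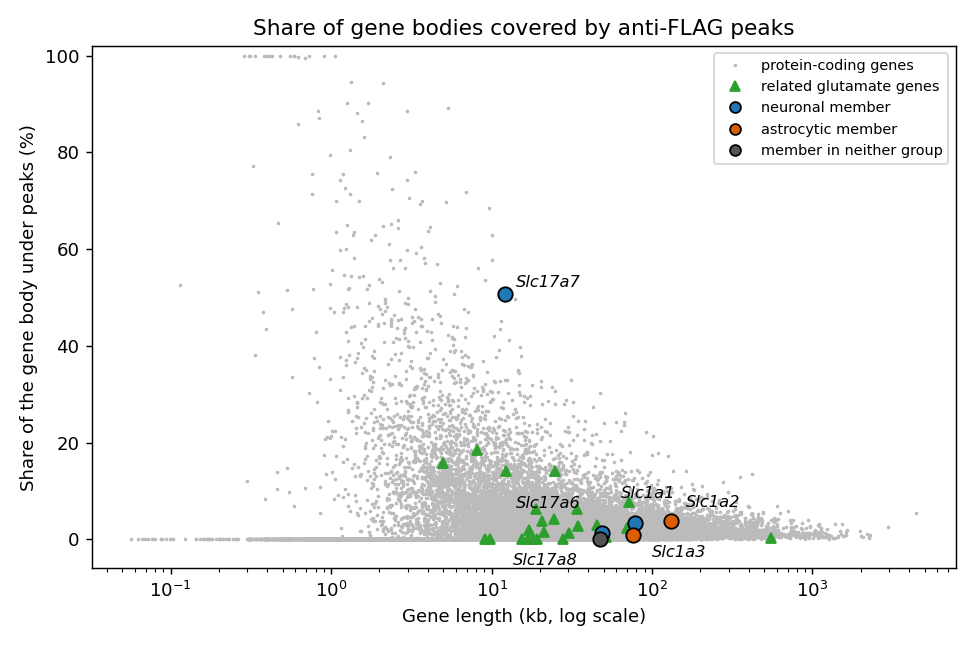
Share of each gene body under peaks (y axis, %) against gene length (x axis, kb, log scale). Small grey points are the 21938 protein-coding genes, green triangles the 24 related genes and large circles the 6 members (blue neuronal, orange astrocytic, dark grey Slc17a8). Slc17a7 stands at 50.7%, the other 5 members between 0 and 3.71%.

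The labelled tissue was compared with marker genes of the cells it can hold, as counts of gene starts with a peak within 1 kb. These were 6 of 8 for neurons, 3 of 8 for astrocytes (Slc4a4, Fgfr3 and Sox9), 0 of 6 for oligodendrocytes and 1 of 5 for microglia (Aif1), beside the 39.3% of all protein-coding genes. The astrocyte markers without a start peak were Gfap, Aldh1l1, Gja1, S100b and Aldoc, and the neuronal ones Neurod6 and Prox1. The share of gene body under peaks ranged from 0 to 45.6% over the 8 neuronal markers, with a median of 3.17%. The highest was at Neurod2, a gene of 4.23 kb, whose peak density was 94.5 per 100 kb. Over the 8 astrocyte markers this share ranged from 0 to 22.5%, with a median of 2.38%. A peak of this antibody is not a measure of expression, and the part of cell composition in the values of Slc17a7, Slc1a2 and Slc1a3 was not tested.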

How the data were processed

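Per the labels' protocols, Bowtie2 placed the trimmed read pairs on mm10, reads of low quality and duplicates were dropped, and SEACR called the peaks with the IgG library as control; versions, mode and stringency are not given in the sources used here. The deposited peak list gives the total and maximum signal (coverage) of each peak, in whole numbers whose scaling is not stated, and the deposited annotation table gives the assigned gene and the distance to its TSS. Its copy of the total signal equalled that of the list for 100% of 99782 annotated peaks. Depth is unknown from these files, the signal of the IgG library was not analysed here, and all intervals cover counting error over peaks only.

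Gene starts, bodies and lengths came from GENCODE M21 and sequence from GRCm38.p6, both of the mm10 build. For all 45 member peaks the assigned transcript was found in GENCODE M21. Sequence was read from the assembly, since the RefSeq promoter table starts Slc1a2 at an internal transcript. Counts, densities and shares were computed with Python 3.11.15, pandas 2.3.3 and SciPy 1.17.1, and the functions were tested on simulated data. For all 6 members the peak nearest to the gene start and the highest peak were described individually. Other peaks, including some at a TSS, were given by range or by single values. Of the related genes, a rule named the 3 with the most peaks and the 3 with the highest start peak. Glul and Slc32a1 were named outside this rule. The members, the lists and the constant-height measure were chosen with earlier results of these data known. No test was made, since each antibody has 1 library.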

Additional observations from a re-analysis of the deposited data

How the results depend on the processing

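The 13 results were recomputed under 47 alternatives, of which 33 left the value within its counting interval or, for a count, within 1.5 times, 14 moved it and 0 reversed it. Counts, shares and densities have no direction to reverse, so that a reversal was possible only for the ratio. Peaks per length of gene body, which gave the opposite order of the groups, were not among the alternatives for the ratio. Leaving Slc17a7 out of the neuronal genes was added after the data had been seen. Stricter sets hold fewer peaks by construction. Among peaks with a maximum signal above the median, the members had 25 peaks, the neuronal genes 13 and the astrocytic genes 12. In the top 10% by maximum signal they had 6, 3 and 3, and without constant-height peaks 19, 9 and 10. With peaks within 1 kb merged, the neuronal genes had 13. The share of member peaks near a TSS was 33.3% within 3 kb, and 2 members had a peak within 3 kb of the gene start. Without constant-height peaks, the density within the gene was 0 for Slc17a6 and 4.54 per 100 kb for Slc1a2. The ratio of neuronal to astrocytic peaks per gene lay between 0.456 (peaks within 1 kb merged) and 0.810 (without Slc17a7), and the motif share was 20% in 400 bp windows, against 19.3% of all annotated peaks in such windows. No paired analysis was possible because each antibody has 1 library. The unknown depth limits every value.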
